A study of Mus musculus with 7 samples.

Results

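Hydroxysteroid dehydrogenases and steroid reductases add or remove hydrogen at single positions of the steroid skeleton, and so turn active androgens, estrogens and glucocorticoids into weaker forms or back again. A group of 10 genes of these enzymes that are known from liver was taken by their symbols: Hsd3b5, Hsd3b2, Hsd3b3, Hsd11b1, Hsd17b2, Hsd17b6, Hsd17b11, Hsd17b13, Srd5a1 and Akr1c6. The platform annotation gave a probe set, a group of probes read as 1 value, to 9 of the 10, out of 35556 probe sets on the array, and Srd5a1 had none. The livers came from male C57BL/6 littermates, and RNA of the left lobe was hybridised to whole-transcript arrays, with 1 array per mouse. Control mice (n = 4) carried 1 floxed allele of Trpm6, the gene of a channel with a kinase domain that is known for the uptake of Mg2+, and no Cre (Trpm6 fl/+). Controls 1 and 2 were aged 12 weeks and controls 3 and 4 were aged 13 weeks. Trpm6-deficient mice (n = 3, Trpm6 Δ17/Δ17;Sox2-Cre) had both alleles disrupted by removal of the floxed exon, with Trpm6-deficient 2 aged 12 weeks and Trpm6-deficient 1 and 3 aged 13 weeks. Sox2-Cre acts in the epiblast, from which all tissues of the body form, so the deletion is not limited to hepatocytes. Cre was carried by the Trpm6-deficient mice and by none of the controls, so an effect of Cre and of the deletion cannot be told apart.

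In mouse liver many genes of steroid metabolism differ between the sexes under the control of pulsatile growth hormone, and Hsd3b5 is a long-known gene of the adult male pattern. The enzymes work in different directions: the Hsd3b enzymes and Akr1c6 oxidise or reduce the 3- and 17-oxygen of steroids, Hsd17b2 and Hsd17b6 oxidise androgens and estrogens, Srd5a1 makes dihydrotestosterone, and Hsd11b1 regenerates active glucocorticoid inside the cell. Hsd17b11 and Hsd17b13 share the family name and are known as proteins of lipid droplets.

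Hsd3b5 stood apart from the rest of these genes. It fell by 6.01 on the log2 scale in Trpm6-deficient livers, to 1.56% of the control level, and it was the 1 gene of the 9 that passed limma's test (adjusted p ≤ 0.1 over all probe sets). None of the 9 passed in the higher direction. Among all probe sets, 0.0534% passed lower and 0.0759% passed higher. At a limma p of up to 0.05 before adjustment, 5 of the 9 were lower (Hsd3b5, Hsd3b2, Hsd3b3, Hsd17b2 and Akr1c6), against 3.03% of all probe sets, and 2 were higher (Hsd11b1 and Hsd17b6), against 3.85%. In 4 of the 9 every Trpm6-deficient liver lay below every control, against 2.38% of all probe sets. In 2 of the 9 every Trpm6-deficient liver lay above, against 2.94%. This group and the lists further below were chosen with earlier results of these data known. The contrasts with all probe sets are therefore a description and not a test. Without 1 array, 5 to 6 of the 9 stayed at a p of up to 0.05 before adjustment: Hsd17b6 dropped out in every case but that without control 4, Akr1c6 in every case but that without Trpm6-deficient 2, and Hsd3b2 without Trpm6-deficient 2. The median log2 change of the 9 was -0.24, and that of all probe sets was 0.00. These are changes in whole liver, in which fewer cells of a type and less RNA per cell cannot be told apart.

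**Figure D1:**
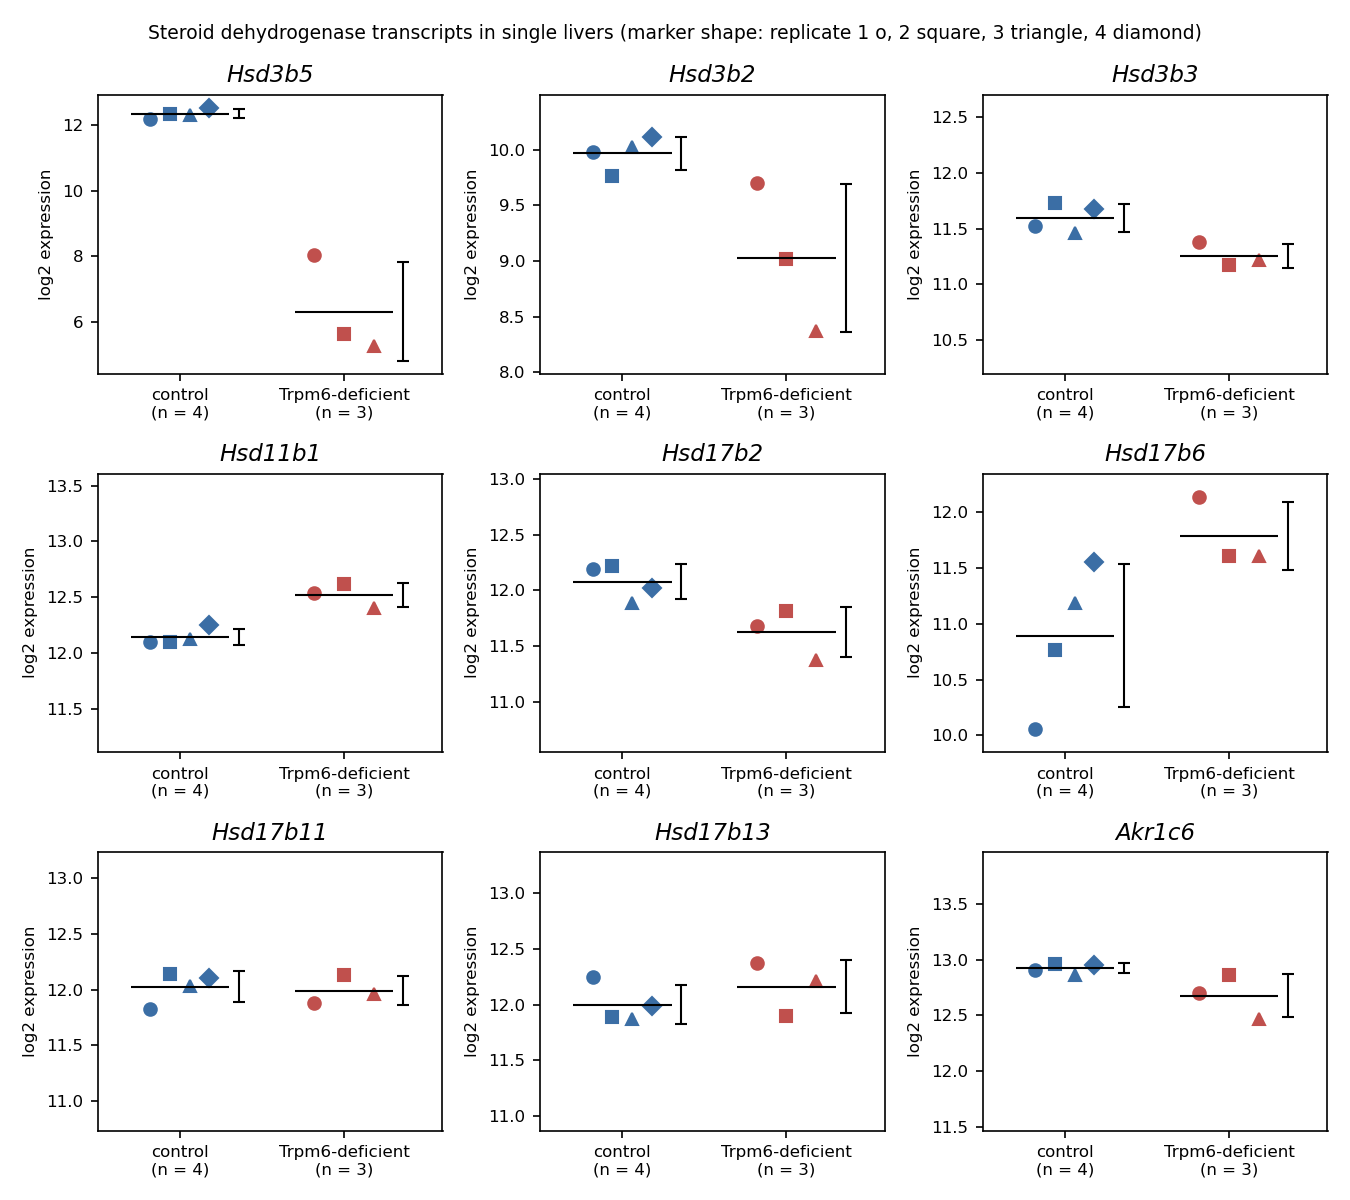
Log2 expression (RMA, y axis, a different range in each panel) of the 9 measured genes in single livers, control in blue (n = 4) and Trpm6-deficient in red (n = 3). The horizontal line is the group mean, the bracket at its side is the mean ± SD, and the marker shape gives the replicate number. The groups are far apart for Hsd3b5, they separate by 0.05 to 0.15 for Hsd3b2, Hsd3b3, Hsd11b1, Hsd17b2 and Hsd17b6, and they overlap or touch for Hsd17b11, Hsd17b13 and Akr1c6.

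Hsd3b5, Hsd3b2 and Hsd3b3 are neighbours on chromosome 3, in the order Hsd3b4, Gm10681, Hsd3b5, Hsd3b2, Hsd3b3 and Hsd3b6. Hsd3b2 and Hsd3b3 encode enzymes of the dehydrogenase and isomerase type, whereas the product of Hsd3b5 is known as a reductase that lowers the 3-keto group of dihydrotestosterone. The bases before the RefSeq starts of Hsd3b5 and Hsd3b3 (GRCm38.p6, minus strand) are shown because these genes, whose changes differ widely, have the most alike windows of the 3 Hsd3b genes. Of the 250 bases, 60.4% were the same in an alignment, and the capitals mark a run of 24 bases that both windows share, at -153 to -130 from the start in Hsd3b5 and at -105 to -82 in Hsd3b3.
Hsd3b5 chr3:98645535-98645784: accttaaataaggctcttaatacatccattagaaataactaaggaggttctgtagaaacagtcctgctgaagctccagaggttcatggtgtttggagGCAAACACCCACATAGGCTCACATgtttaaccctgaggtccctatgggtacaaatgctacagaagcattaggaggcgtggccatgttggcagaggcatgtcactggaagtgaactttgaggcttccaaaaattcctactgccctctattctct
Hsd3b3 chr3:98763129-98763378: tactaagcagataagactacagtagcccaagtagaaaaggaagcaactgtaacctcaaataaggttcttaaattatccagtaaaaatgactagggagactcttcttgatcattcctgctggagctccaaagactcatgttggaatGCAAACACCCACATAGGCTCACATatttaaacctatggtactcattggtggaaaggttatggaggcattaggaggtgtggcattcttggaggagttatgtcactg

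The windows of Hsd3b2 and Hsd3b5 shared 50.4% of the bases, with a longest run of 8, and those of Hsd3b2 and Hsd3b3 shared 51.2%. In the 39 pairs of windows that were not both of an Hsd3b gene, the share ran from 44.0% to 55.2% with a median of 49.2%, and the longest run was 11 bases. RefSeq windows were found for 9 of the 10 genes, 11 windows in all with alternative starts, and Hsd17b2 was not listed. None of the 11 windows held TTCNNNGAA, the element of STAT5, on either strand, and 7.02% of 32851 windows of all genes did. CAAAGTCCA, an element of HNF4A, was in 0.384% of all windows and in none of the 11, and ATTGAT, an element of HNF6, was in 6.72% of all and in none of the 11. This says only that these letters are not within these 250 bases.

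Hsd3b5 (probe set 10500545) had log2 values of 12.19, 12.33, 12.29 and 12.52 in controls 1 to 4 and of 8.04, 5.66 and 5.28 in Trpm6-deficient 1 to 3. The controls lay within a narrow band, and each Trpm6-deficient liver lay below the lowest of them by at least 4.15. Trpm6-deficient 1 kept more of the transcript than the other two, and the group means were 12.33 ± 0.14 (SD, n = 4) and 6.33 ± 1.50 (SD, n = 3). The log2 change was -6.01 with a standard error of 0.64 and a 95% confidence interval of -7.55 to -4.46 (adjusted p = 0.0735 from limma), which is a 64.3-fold lower level. Within the 12-week-old livers the difference was -6.60, and within the 13-week-old livers it was -5.74. The lower quartile of the arrays lay between 5.05 and 5.11, close to Hsd3b5 in Trpm6-deficient 2 and 3, so the fold is a lower limit should these values be background. Its call was lost with age as a covariate (adjusted p = 0.169), without control 1 (0.227), 2 (0.266), 3 (0.287) or 4 (0.284), and without Trpm6-deficient 2 (0.239) or 3 (0.228), as adjusted p from limma, while the log2 change stayed between -6.09 and -5.48 in these fits. Without Trpm6-deficient 1, the liver with the most Hsd3b5, the change was -6.86 (adjusted p = 0.000524).

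A pair of further probe sets carried Hsd3b5 among 3 symbols, Gm10681, Hsd3b5 and Hsd3b4, and they had identical values on all 7 arrays. They were left out of the counts because not all of their symbols were in the group. Their log2 values were 7.16, 7.57, 7.16 and 7.46 in control and 6.27, 5.02 and 6.43 in Trpm6-deficient livers, so here too the groups did not overlap. Their log2 change was -1.43 (SE 0.35, adjusted p = 0.429 from limma). Which of the 3 transcripts these probes read was not tested.

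Hsd3b2 (10500547), a dehydrogenase of kidney and liver, was at 9.98, 9.76, 10.02 and 10.11 in control and at 9.70, 9.02 and 8.37 in Trpm6-deficient livers. Trpm6-deficient 1 was only 0.06 below control 2, and Trpm6-deficient 3 was the farthest from the controls. The log2 change was -0.94 (SE 0.30, 95% confidence interval -1.65 to -0.23, unadjusted p = 0.0175 and adjusted p = 0.62 from limma), and -0.61 without Trpm6-deficient 3. Hsd3b3 (10500555), the second dehydrogenase of this pair, was at 11.52, 11.73, 11.46 and 11.68 in control and at 11.38, 11.17 and 11.22 in Trpm6-deficient livers. Its log2 change was -0.34 (SE 0.09, 95% confidence interval -0.56 to -0.13, unadjusted p = 0.00767 and adjusted p = 0.49 from limma). All 3 genes had their highest Trpm6-deficient value in Trpm6-deficient 1, and neither Hsd3b2 nor Hsd3b3 passed the test over all probe sets.

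**Figure D2:**
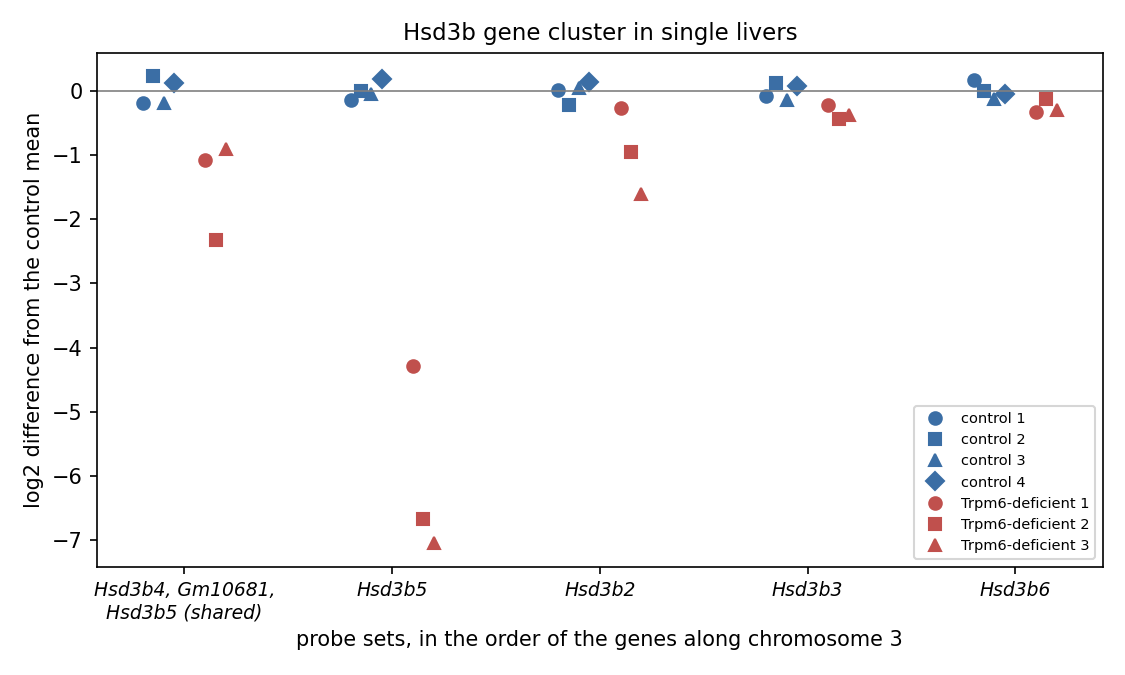
Log2 difference of each liver from the control mean (y axis) for probe sets of the Hsd3b cluster, placed by gene order on chromosome 3 (x axis, not to scale). Blue markers are control and red markers Trpm6-deficient livers. The Trpm6-deficient livers lie at -4.29 to -7.05 for Hsd3b5, and no lower than -1.60 for Hsd3b2, Hsd3b3 and Hsd3b6.

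The distance between Hsd3b5 and other genes of the cluster was also followed within each liver. It is given as a description only, since all of these distances hold the Hsd3b5 values already given. From control to Trpm6-deficient livers the mean distance from Hsd3b2 changed by -5.07 in log2 units. The same change was -5.67 against Hsd3b3 and -5.76 against Hsd3b6, an isoform known from skin and adrenal.

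Srd5a1, the 5α-reductase that turns testosterone into dihydrotestosterone, had no probe set under its symbol. The study pairs an otherwise unnamed probe set of the array with Srd5a1, which could not be checked against the annotation used here, so it stays out of the counts of the 9 measured genes. That probe set (10410452) was at 11.54, 11.72, 11.95 and 11.78 in control and at 10.67, 10.30 and 10.07 in Trpm6-deficient livers. Every Trpm6-deficient liver lay below every control, with a gap of 0.87. Between the groups it changed by -1.40 in log2 units (SE 0.16, 95% confidence interval -1.79 to -1.02, adjusted p = 0.0795 from limma), a 2.64-fold lower level. The differences within the ages were -1.33 at 12 weeks and -1.49 at 13 weeks. The call was lost without any 1 of the 4 controls (adjusted p = 0.216, 0.283, 0.287 and 0.297 without controls 1 to 4), without Trpm6-deficient 2 (0.283) or 3 (0.256), and with age as a covariate (0.169), while without Trpm6-deficient 1 it was 0.0572, all from limma. It was also lost with the methods' t-test (adjusted p = 0.349) and with the replicate block without control 4 (adjusted p = 0.388 from limma). The log2 change lay between -1.56 and -1.26 when 1 array was left out.

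Hsd11b1 (10361234), which reduces inactive 11-keto glucocorticoid to the active hormone with NADPH made by H6pd, was at 12.10, 12.10, 12.12 and 12.25 in control and at 12.54, 12.62 and 12.40 in Trpm6-deficient livers. Every Trpm6-deficient liver lay above every control, by at least 0.15. Hsd11b1 had a log2 change of 0.38 (SE 0.07, 95% confidence interval 0.21 to 0.55, unadjusted p = 0.00141 and adjusted p = 0.273 from limma), a 1.3-fold higher level that did not pass over all probe sets. The difference was 0.52 at 12 weeks and 0.29 at 13 weeks.

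Of the 4 Hsd17b genes of the group, 2 overlapped between control and Trpm6-deficient livers. In 1 every Trpm6-deficient liver lay below every control, against 2.38% of all probe sets, and in 1 above, against 2.94%. None of the 4 had an adjusted p ≤ 0.1 from limma. Hsd17b2 (10575833), which oxidises estradiol and testosterone to their weaker keto forms, was at 12.19, 12.22, 11.89 and 12.02 in control and at 11.68, 11.82 and 11.38 in Trpm6-deficient livers. The groups did not overlap, with a gap of 0.07, and the log2 change was -0.45 (SE 0.13, 95% confidence interval -0.77 to -0.14, unadjusted p = 0.0117 and adjusted p = 0.571 from limma). Hsd17b6 (10373334), which can oxidise androstanediol back to dihydrotestosterone, was at 10.06, 10.77, 11.19 and 11.56 in control and at 12.14, 11.61 and 11.61 in Trpm6-deficient livers. The Trpm6-deficient livers lay above the controls by 0.05 at the nearest, and the controls spread over a wider range than those of any other gene of the 9. Hsd17b6 had a log2 change of 0.89 (SE 0.36, 95% confidence interval 0.02 to 1.76, unadjusted p = 0.0459 and adjusted p = 0.712 from limma). Control livers aged 12 weeks had a mean of 10.41 and those aged 13 weeks a mean of 11.38, and the difference between genotypes was 1.20 at 12 weeks and 0.50 at 13 weeks. With age as a covariate the log2 change was 0.78 (adjusted p = 0.619 from limma).

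Hsd17b11 and Hsd17b13, both of lipid droplets, are neighbours on chromosome 5. Hsd17b11 (10531919) was at 11.83, 12.14, 12.03 and 12.10 in control and at 11.88, 12.13 and 11.96 in Trpm6-deficient livers, which lay inside the control range. Its log2 change of -0.03 had a 95% confidence interval of -0.27 to 0.20 (adjusted p = 0.967 from limma). Hsd17b13 (10531910) was at 12.25, 11.89, 11.87 and 11.99 in control and at 12.37, 11.90 and 12.21 in Trpm6-deficient livers. Here too the groups overlapped, and the log2 change of 0.16 had a 95% confidence interval of -0.18 to 0.50 (adjusted p = 0.879 from limma). It was 0.06 without Trpm6-deficient 1 and 0.29 without Trpm6-deficient 2. The intervals leave room for changes of up to 0.27 and 0.50 on the log2 scale.

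Akr1c6 (10403322), an aldo-keto reductase of mouse liver with 17β-hydroxysteroid dehydrogenase activity, lies between Akr1c12 and Akr1c20 on chromosome 13. It was at 12.91, 12.96, 12.86 and 12.95 in control and at 12.70, 12.86 and 12.47 in Trpm6-deficient livers. The groups met at 12.86, the value of control 3 and of Trpm6-deficient 2. The log2 change was -0.24 (SE 0.09, 95% confidence interval -0.47 to -0.02, unadjusted p = 0.0389 and adjusted p = 0.693 from limma), with -0.08 at 12 weeks and -0.32 at 13 weeks. Without Trpm6-deficient 3 it was -0.14. Of the 6 genes with a negative log2 change, 4 (Hsd3b5, Hsd3b2, Hsd17b2 and Akr1c6) had their lowest Trpm6-deficient value in Trpm6-deficient 3.

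The other hydroxysteroid dehydrogenases and steroid reductases were taken as a list of 29 genes, of which 24 were measured. None of the 24 passed limma's test or the methods' t-test after adjustment over all probe sets, and with limma at p of up to 0.05 before adjustment 2 were higher and 1 was lower, 12.5% of the list against 6.87% of all probe sets. The median log2 change of the 24 was -0.02. Akr1d1 is the 5β-reductase of bile acid synthesis and steroid clearance. It was at 11.11, 10.93, 10.86 and 10.73 in control and at 11.60, 11.69 and 11.42 in Trpm6-deficient livers. It was the 1 gene of the list without overlap, 4.17% of the list against 5.33% of all probe sets. Its log2 change was 0.66 (SE 0.11, adjusted p = 0.202 from limma), and it passed when probe sets with a mean log2 value under 7 were left out. Dhrs9, a retinol and 3α-hydroxysteroid dehydrogenase, differed by 1.06 in log2 units (SE 0.35, adjusted p = 0.641 from limma), with Trpm6-deficient 1 at 8.37 inside the control range of 7.33 to 8.43. Hsd3b6 differed by -0.24 (SE 0.09, adjusted p = 0.67 from limma), and its groups overlapped. No Akr1c gene of the list reached an unadjusted p ≤ 0.05.

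**Figure D3:**
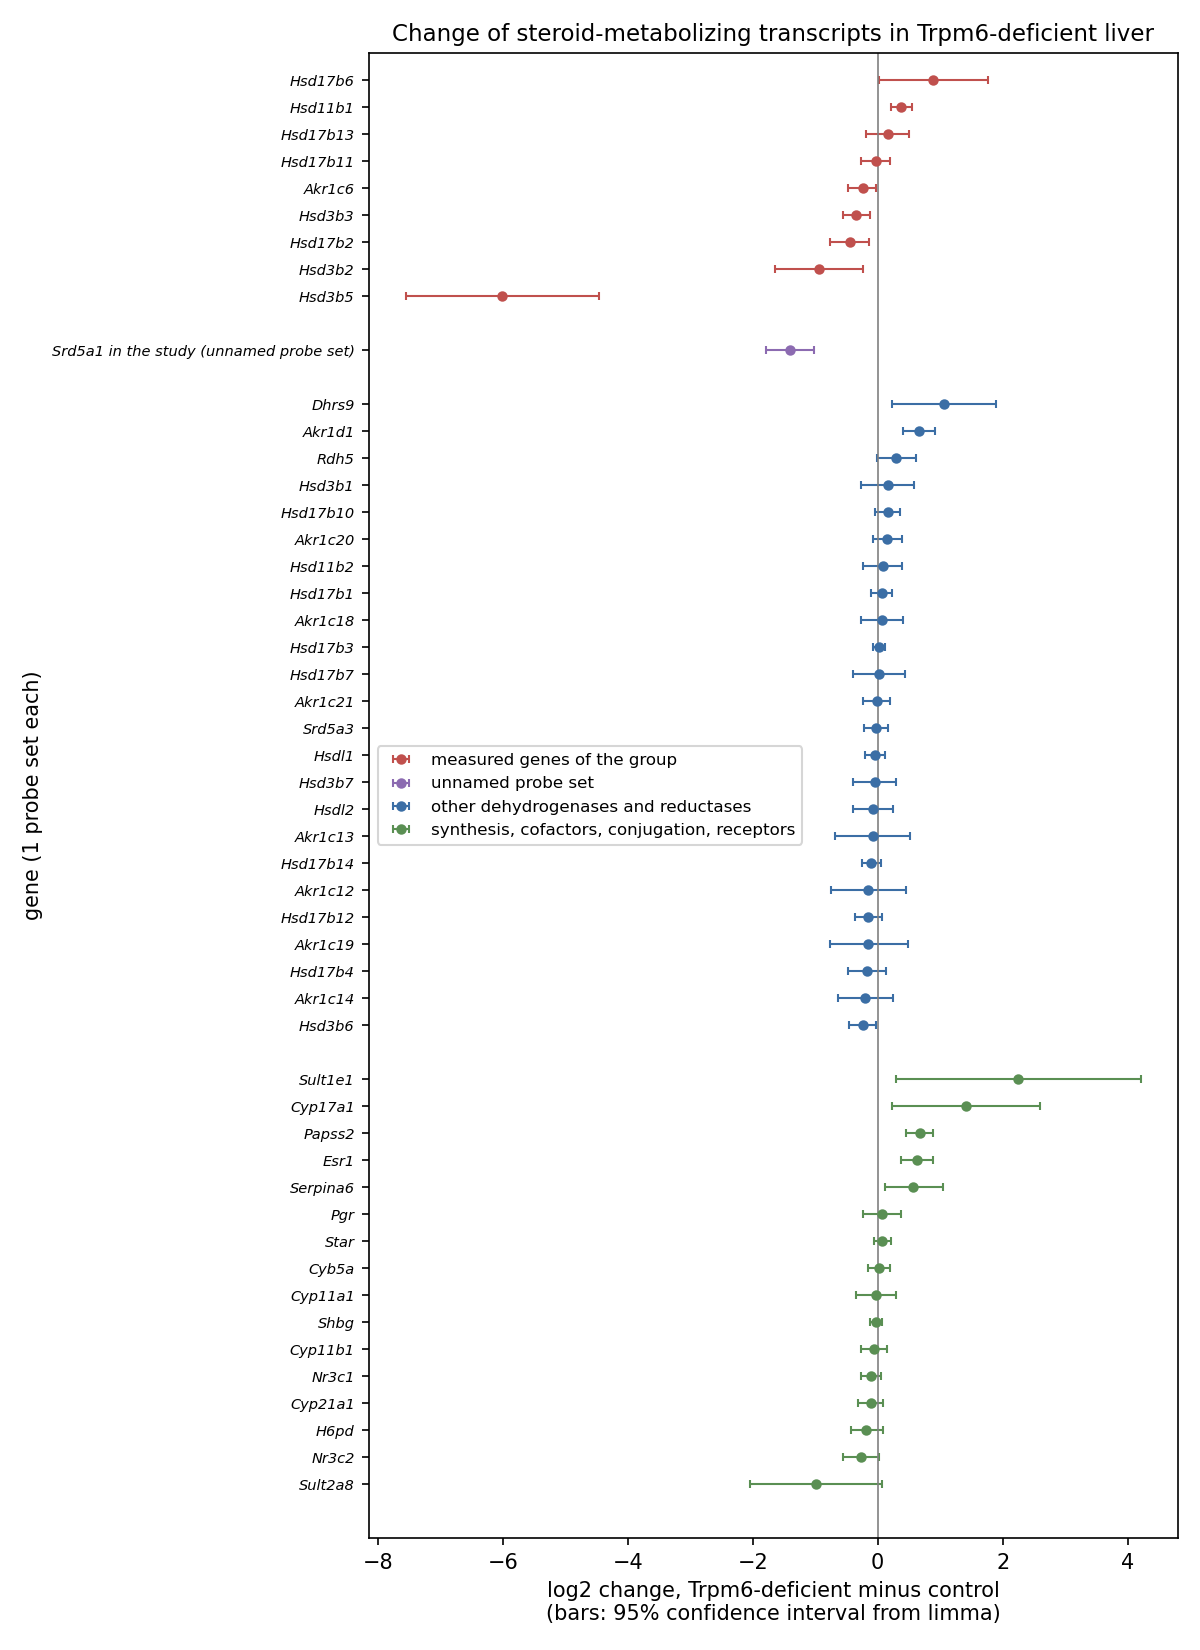
Log2 change of each gene, Trpm6-deficient minus control (x axis, points), with its 95% confidence interval from limma (bars), for the 9 measured genes in red, the unnamed probe set that the study pairs with Srd5a1 in purple, other dehydrogenases and reductases in blue and genes of steroid synthesis, cofactors, conjugation and receptors in green. Hsd3b5 lies at -6.01, and the other 8 measured genes lie between -0.94 and 0.89.

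Genes that supply or receive the same steroids (synthesis, cofactors, conjugation, carriers and receptors) were a list of 21, of which 16 were measured and none passed limma's test or the methods' t-test after adjustment. In limma at p of up to 0.05 before adjustment, 5 were higher, against 3.85% of all probe sets, and none was lower, against 3.03%, and the median log2 change was 0.00. Papss2, which makes the sulfate donor of steroid sulfotransferases, was at 11.94, 12.07, 11.77 and 12.01 in control and at 12.51, 12.71 and 12.65 in Trpm6-deficient livers, without overlap (log2 change 0.68, SE 0.09, adjusted p = 0.119 from limma). Esr1, the estrogen receptor of liver, was at 8.69 to 9.10 in control and at 9.47 to 9.59 in Trpm6-deficient livers (log2 change 0.63, SE 0.11, adjusted p = 0.232). Both passed when probe sets with a mean log2 value under 7 were left out. Serpina6, the corticosteroid-binding globulin of plasma, differed by 0.57 (SE 0.19, adjusted p = 0.647). Cyp17a1, the 17-hydroxylase, differed by 1.41 (SE 0.49, adjusted p = 0.657), and its groups overlapped. Sult1e1, the estrogen sulfotransferase, was at 3.38 to 4.08 in control and at 4.06, 7.81 and 5.93 in Trpm6-deficient livers. Trpm6-deficient 1 thus lay within the control range (log2 change 2.25, SE 0.81, adjusted p = 0.672 from limma). The controls and Trpm6-deficient 1 lay below the lower quartiles of the arrays (5.05 to 5.11), so these values may be background. Sult2a8, a hepatic sulfotransferase, was at 12.05 to 12.28 in control and at 11.82, 11.80 and 10.04 in Trpm6-deficient livers, the 1 gene of the list that was lower without overlap (log2 change -0.99, SE 0.44, unadjusted p = 0.0627 and adjusted p = 0.762 from limma). It is named outside the rule for named genes, after its values were seen. In 2 of the 16 (Papss2 and Esr1) every Trpm6-deficient liver lay above every control, against 2.94% of all probe sets. In 1 (Sult2a8) every Trpm6-deficient liver lay below, against 2.38%. H6pd, which supplies NADPH to Hsd11b1, did not reach an unadjusted p ≤ 0.05.

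Over the 7 arrays, the genes whose values followed Hsd3b5 most closely among 10690 probe sets were Serpina4-ps1, Elovl3, Mcm10 and Ube4b, each with r = 0.99, and C8b with r = 0.98. The most opposite were Gstt3, with r = -0.99, and Hamp2, Abcb1a, Slc16a5 and Cyp2c39, each with r = -0.98. These coefficients are a description over arrays of both groups, so a gene that differs between the groups in the same way as Hsd3b5 gets a high value.

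Trpm6 itself was at 5.50 to 5.53 in control and at 5.50, 5.37 and 5.50 in Trpm6-deficient livers (log2 change -0.05, SE 0.05, adjusted p = 0.882 from limma). The exons that this probe set covers are not known here, so it does not check the labels. Its level was also low in control livers, between the lower quartiles (5.05 to 5.11) and the medians (6.43 to 6.48) of the arrays. This leaves little room to see a fall. The mean log2 level of 9 hepatocyte markers was 13.73 to 13.88 in control and 13.80 to 13.85 in Trpm6-deficient livers, and none of the 9 reached an unadjusted p ≤ 0.05. The 5 markers of steroid-producing glands had a mean of 5.72 to 5.83 in control and 5.69 to 5.81 in Trpm6-deficient livers, below the array medians of 6.43 to 6.48. The means of Kupffer cell markers (8.36 to 9.29 against 8.62 to 8.73) overlapped between the groups. So did those of sinusoidal endothelium (8.88 to 9.89 against 9.10 to 9.50). Both overlaps came from control 1 alone (8.36 and 8.88). Controls 2 to 4 lay at 9.04 to 9.29 and at 9.57 to 9.89, above every Trpm6-deficient liver. No marker of these cell types reached an unadjusted p ≤ 0.05 from limma. The means of stellate cell (9.30 to 9.64 against 9.49 to 9.68) and leukocyte markers (5.53 to 5.74 against 5.59 to 5.68) overlapped as well. Those of cholangiocytes met at 6.94 (6.86 to 6.94 against 6.94 to 7.11). Of the stellate markers 2 of 5 were higher at a limma p of up to 0.05 before adjustment (Reln by 0.30, without overlap, and Des by 0.28 in log2 units). The cholangiocyte marker Krt19 (0.33) was higher too, and none of these passed after adjustment. The other stellate markers differed by 0.13 (Dcn), -0.21 (Lrat) and -0.08 (Colec11). The other cholangiocyte markers differed by 0.16 (Krt7), 0.16 (Sox9) and -0.06 (Epcam). Control 4 stood apart in the acinar markers Cpa1 (7.42 against 5.84 to 5.96 on the other 6 arrays) and Ctrb1 (8.07 against 6.24 to 6.58), while the fat cell markers Adipoq (4.56) and Plin1 (6.45) in control 4 lay within the range of the others. The mean of these 4 markers was 5.75 to 6.62 in control and 5.74 to 5.82 in Trpm6-deficient livers, and the part of any marker in the results was not tested.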

How the data were processed

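The authors hybridised liver RNA to Affymetrix Mouse Gene ST arrays and used Expression Console 1.4.0, per the labels, for RMA background correction, normalization and summary. The deposited values are log2 intensities with 2 decimals, 1 column per mouse. Of 35556 probe sets, 21789 had 1 gene symbol, 1621 had several and 12146 had none in the platform annotation. A gene was read from its brightest probe set by the mean of 7 arrays. All probe sets were fitted with limma 3.58.1 (R 4.3.3) without covariates, on 4 control and 3 Trpm6-deficient arrays, adjusted by Benjamini and Hochberg and called at an adjusted p ≤ 0.1, the threshold in the study's methods. The fit was tested on simulated data. The labels name separate mice, and precision is limited by the number of arrays. Array medians were 6.43 to 6.48. Genes named from the other lists had the smallest unadjusted p at 0.05 or less, up to 8 per list. The genes and lists were chosen with earlier results of these data known. Promoter windows are from RefSeq (GRCm38.p6). Alternatives were age as a covariate, filters on dim probe sets, other normalizations, variance models and thresholds. Further ones were an ordinary t-test, a replicate block and leaving out each array. The study called its transcripts with limma and named a t-test only for an unadjusted p ≤ 0.05.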

Additional observations from a re-analysis of the deposited data

Results flagged for a closer look

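In control livers Hsd11b1 had 1 value far from the others. Control 4 was at 12.25 and controls 1 to 3 at 12.10 to 12.12, so the gap was 0.867 of the range of the group, above Dixon's 95% critical value for 4 samples. Of the 20 groups of control values tested, this was the 1 that passed, and chance alone marks about 1 in 20.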

How the results depend on the processing

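The number of the 9 genes that passed was 1 (Hsd3b5). It became 0 with age as a covariate and with a threshold of 0.05 on the adjusted p. It was also 0 with an ordinary t-test (adjusted p = 0.326 for Hsd3b5). With the replicate block without control 4 it was 0 too (Hsd3b5 log2 change -5.94, adjusted p = 0.388 from limma). It was 0 to 1 when 1 array was left out, and 2 with the probe set that the study pairs with Srd5a1, an addition chosen after the data were seen. The 7 genes at an unadjusted p of 0.05 or less became 3 with the replicate block (Hsd3b5, Hsd11b1 and Hsd17b2). They became 5 with an ordinary t-test and 5 to 6 without 1 array. Whether the replicate numbers pair the mice is not known. Deviations from the group means of same-numbered arrays correlated with r = 0.33, 0.26 and 0.09. Of the 3 Trpm6-deficient arrays, 2 correlated best with their own number. Control 1 was aged 12 weeks and Trpm6-deficient 1 was aged 13 weeks, so these same-numbered mice differed in age. Of the other dehydrogenases and reductases 1 passed (Akr1d1) with probe sets of a mean log2 value of 7 or more. Of the genes of steroid handling 1 passed with a mean of 5 or more and with the mean of the probe sets of each gene (Papss2), and 2 with a mean of 7 or more (Papss2 and Esr1). All probe sets passing were 46, against 7 to 69 without 1 array, 8 with age and 14 at the threshold of 0.05. They were 70 and 118 with probe sets of a mean of 5 or 7 or more. An ordinary t-test gave 8, the replicate block 1 and gene means 73. Hsd17b11 ran from -0.10 to 0.02 without 1 array and turned from -0.03 to 0.00 without control 2 and to 0.02 without Trpm6-deficient 1. The cause of these shifts was not tested. The number of arrays limits small changes, and the deposited values hold no background call.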
